A study of Arabidopsis thaliana with 6 samples.

Results

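The comparison described here set Arabidopsis thaliana root explants of the arr1 single mutant against wild-type (WT) explants, across all genes. The libraries were taken by the genotype in their titles, 2 labelled arr1 and 2 labelled WT, which makes 4 of the 6 libraries of the study. The remaining 2 were Pro35SARR1, named in the labels for ARR1 behind the 35S promoter. They entered the fit as another genotype and shared the estimate of spread. All explants spent 5 days on CIM, the callus-inducing medium, and then 7 days on SIM, the shoot-inducing medium, under continuous light at 22 °C. SIM was supplemented with the auxin IAA at 0.15 mg/L and, as cytokinin, N6-(2-isopentenyl)adenine at 1 mg/L. The series places this harvest at the time when a new shoot meristem forms. The labels used here give no arr1 allele, no accession background and no age of the donor seedlings. They do not state that the 2 libraries of a genotype are separate cultures, and p-values then cover only the spread among these libraries, which may be technical.

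ARR1 is a type-B response regulator. Such proteins receive a phosphate from the cytokinin phosphorelay in the nucleus and then bind DNA and turn on target genes. A root explant on CIM forms callus with features of a lateral root primordium, and cytokinin in SIM is known to turn parts of that callus into shoot meristems. Those meristems then give rise to leaf primordia with an epidermis, stomata and trichomes.

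The targeted gene itself did not separate the genotypes. ARR1 (AT3G16857, on chromosome 3 at 5755821 to 5759443 by the deposited coordinates) stood at 61.2 and 58.6 CPM in the arr1-labelled libraries, against 61.3 and 59.8 CPM in WT, where CPM is the count per 1000000 after scaling for library size and composition. The groups overlapped, and the log2 fold change was −0.02 (SE 0.102, adjusted p = 0.949). It overlaps AT3G16860 in the table. Its sign turned positive with upper-quartile scaling, with library totals alone and without arr1 replicate 2. The transcript level therefore does not check the genotype, and every direction below rests on the labels. Each log2 fold change is arr1 over WT, so a positive one is higher in the arr1-labelled libraries.

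Of 18083 genes tested, 198 (1.09%) were higher and 343 (1.90%) lower in arr1 at an adjusted p under 0.05 (edgeR quasi-likelihood test), 2.99% in all. With the replicate number as a block, 1127 (6.23%) were higher and 1720 (9.51%) lower, among them all 541 of those genes. At an unadjusted p under 0.05 in the fit without the block, 1741 genes were higher and 2242 lower, 3983 in all. At a minimum of 2-fold, 169 (0.935%) were called higher and 152 (0.841%) lower. When 1 library was left out, 0 genes were called in either direction without arr1 replicate 1 and 0 without arr1 replicate 2, where 2577 and 2295 genes had an unadjusted p under 0.05. The other 4 such fits called 15 to 26 genes higher and 5 to 11 lower, each with a lone library in 1 genotype that is assumed to vary like the others. The share of calls that were higher was 36.6%, and 63.0% with scaling by library totals alone, which shifted the median log2 fold change of all genes by 0.13. The libraries labelled arr1 were the smallest, with 8193313 and 8377273 estimated counts against 9012057 and 9381532 in WT. In all 541 called genes the arr1 and WT libraries did not overlap. Among all tested genes 27.2% lay without overlap in the higher direction and 27.2% in the lower.

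The called genes in each direction were of different abundance. Genes called higher had a median of 11.7 CPM over the 6 libraries, genes called lower 94.4 CPM and the 18050 tested nuclear genes 21.5 CPM. At 100 CPM and above, 165 of 2215 tested genes were lower (7.45%) and 14 higher (0.632%). Below 5 CPM, 12 of 3241 were lower (0.370%) and 54 higher (1.67%). The genes called higher took 1.06% and 1.13% of all CPM in the arr1-labelled libraries, against 0.394% and 0.416% in WT. The genes called lower took 5.12% and 4.81% in the arr1-labelled libraries, against 9.49% and 9.47% in WT. In Pro35SARR1 those shares were 0.412% and 0.421% for the first set and 9.32% and 9.22% for the second. Both sets were called on the difference between these same arr1 and WT libraries, so a gap between those genotypes was fixed by the calls. The Pro35SARR1 shares are set beside the same WT libraries.

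**Figure D1:**
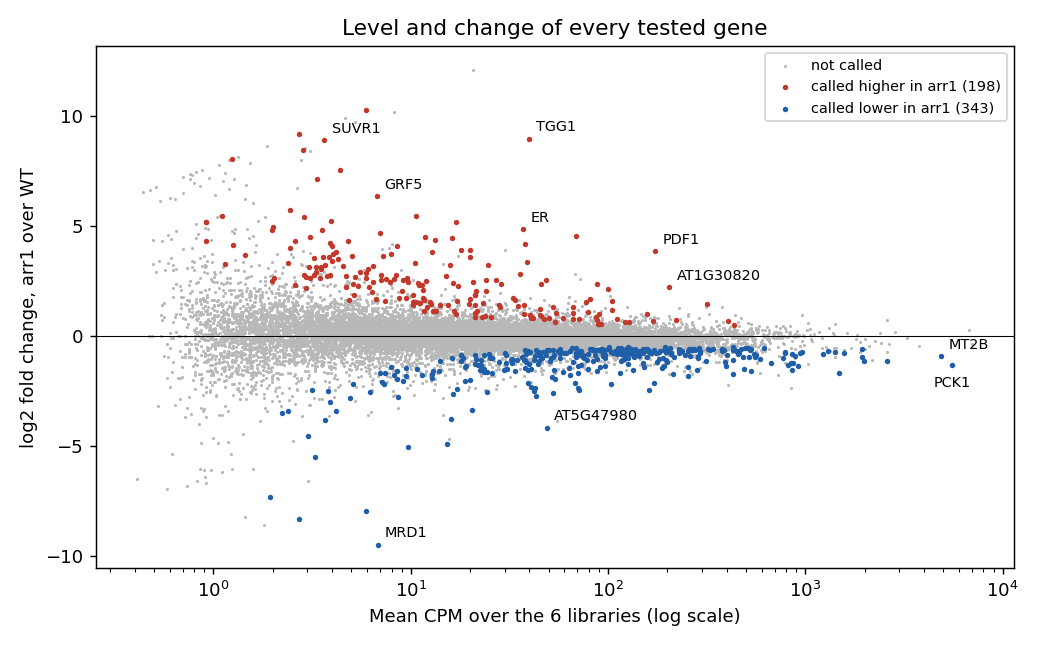
Each point is 1 of 18083 tested genes, with its mean CPM over the 6 libraries on a log axis and its log2 fold change, arr1 over WT, on the other. Red points are the 198 genes called higher and blue points the 343 called lower; the blue points lie further right, at a median of 94.4 CPM against 11.7 CPM for the red ones.

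Genes of the shoot epidermis and its cuticle were called in 1 direction, higher in the arr1-labelled libraries. Of 35 listed genes 30 were tested, 8 (26.7%) were called higher and 0 lower, against 1.09% and 1.90% of all genes, with a median log2 fold change of 1.16. This list and those below were chosen with earlier results of these data known, so such shares are no independent evidence. Over all tested genes 8991 lay above 0 and 9083 below. The block called 19 higher and 1 lower. Summed over the list, the level was 3037 and 2676 CPM in the arr1-labelled libraries, against 1599 and 1121 CPM in WT. In bulk tissue, more cells of a type and more RNA per cell cannot be told apart. ATML1, the homeodomain factor that specifies epidermal identity, stood at 46.9 and 56.1 CPM in the arr1-labelled libraries, 4.44 and 5.25 CPM in Pro35SARR1 and 3.16 and 3.71 CPM in WT. Both arr1 libraries lay far above all 4 others (adjusted p = 0.00704, log2 fold change 3.90 with an SE of 0.202). PDF1, a protodermal protein of the outermost cell layer, stood at 438 and 472 CPM, against 29.9 and 42.2 CPM in Pro35SARR1 and 19.4 and 42.8 CPM in WT (adjusted p = 0.0247, log2 fold change 3.87 with an SE of 0.400). Of all genes called higher it had the largest difference in mean CPM.

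Enzymes and carriers of cuticle synthesis were among these calls. LACS1, a long-chain acyl-CoA synthetase of wax and cutin synthesis, stood at 81.4 and 74.1 CPM in the arr1-labelled libraries, 21.1 and 17.2 CPM in Pro35SARR1 and 12.3 and 9.89 CPM in WT (adjusted p = 0.0117, log2 fold change 2.81 with an SE of 0.174). DCR (PEL3 in RefSeq), an acyltransferase needed for cutin, stood at 105 and 111 CPM, against 19.3 and 18.1 CPM in WT (adjusted p = 0.00704, log2 fold change 2.53 with an SE of 0.126). As in every called gene, the arr1 and WT libraries did not overlap, and for both genes the Pro35SARR1 libraries lay nearer to WT. BDG1, a hydrolase-fold protein of the cuticle, rose by a log2 fold change of 2.07. LTPG1, a membrane-anchored lipid transfer protein of wax export, rose by 1.54. The receptor kinase gene ACR4 (AT3G59420, CR4 in RefSeq), of epidermal cell layers, rose by 1.15. FDH (KCS10 in RefSeq), a 3-ketoacyl-CoA synthase that keeps shoot organs from fusing, stood at 154 and 156 CPM, against 56.3 and 39.5 CPM in WT (adjusted p = 0.0339, log2 fold change 1.69 with an SE of 0.228).

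FDH was not the only gene for fatty acid elongation. Among 3-ketoacyl-CoA synthases, a family taken up after values were seen, 21 were in the table and 15 were tested. Of these 4 (26.7%) were higher and 0 lower, against 1.09% and 1.90% of all genes (7 and 2 with the block). KCS8 stood at 51.3 and 51.5 CPM in the arr1-labelled libraries, against 3.04 and 5.40 CPM in WT (adjusted p = 0.0262, log2 fold change 3.60 with an SE of 0.387). KCS19 stood at 24.5 and 27.8 CPM, against 2.14 and 3.15 CPM in WT (adjusted p = 0.0264, log2 fold change 3.30 with an SE of 0.375). KCS12 rose by a log2 fold change of 2.61. Other lipid-handling families gave calls too. Of 47 tested GDSL lipases 4 (8.51%) were higher and 0 lower, but 11 and 11 with the block and 10 and 6 with DESeq2, with a median of −0.13. Among the 4 was AT5G45670, at 107 and 94.5 CPM, against 20.4 and 18.7 CPM in WT (adjusted p = 0.00704, log2 fold change 2.37 with an SE of 0.123). Of 52 tested lipid transfer proteins 3 were higher and 5 lower, 15.4% called against 2.99% over all genes. The block called 9 higher and 16 lower, and the median was −0.48. LTP6 stood at 108 and 97.4 CPM, against 2.93 and 8.43 CPM in WT, while AT3G58550 stood at 49.2 and 56.1 CPM, against 97.8 and 109 CPM in WT. AT3G58550 overlaps AT3G58540 in the table, and without a stated use of strand their reads cannot be told apart.

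**Figure D2:**
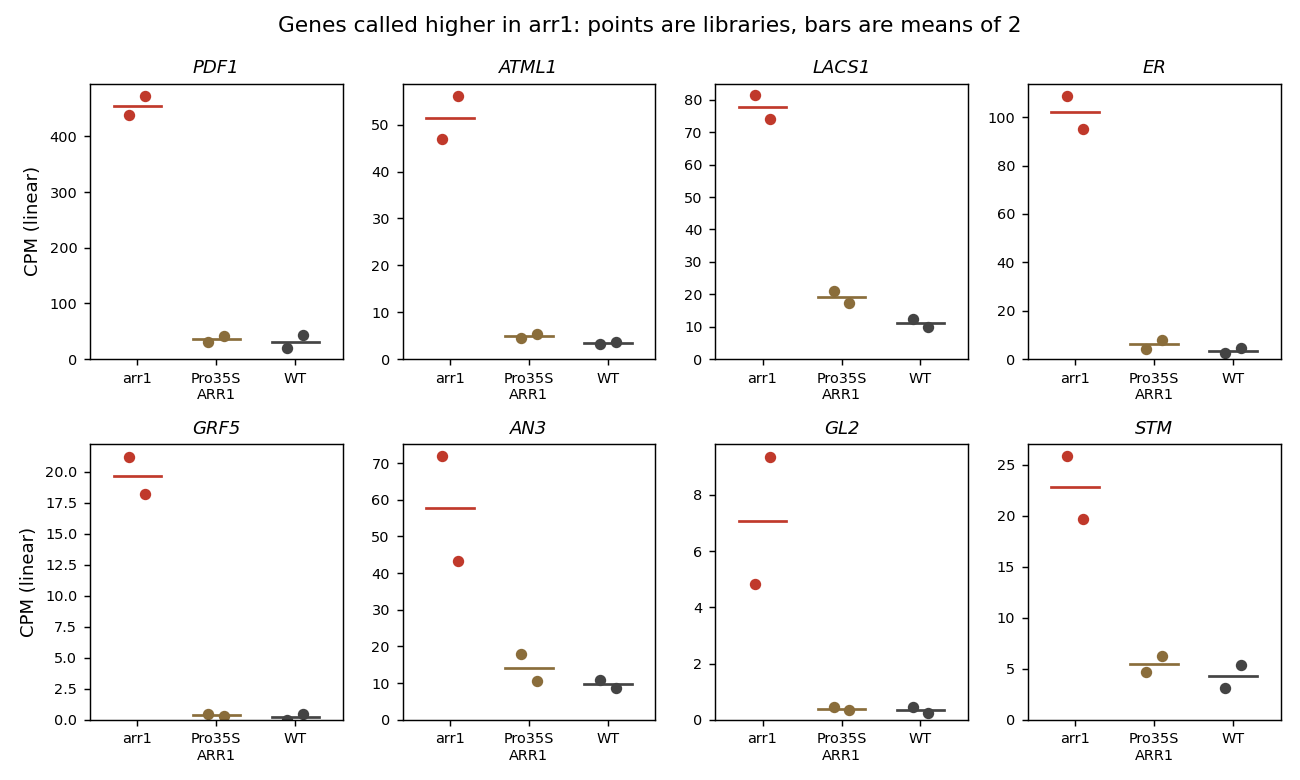
CPM on a linear axis starting at 0 in each library of arr1, Pro35SARR1 and WT for 8 genes called higher, with a bar at the mean of 2 libraries. In each panel both arr1 points lie above all 4 other points; for AN3 and GL2 the 2 arr1 points lie well apart.

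The L1 box is the promoter element that ATML1 and its relatives bind in epidermal genes, and it was counted in the 250 bases before each gene start, as TAAATGCA or TAAATGTA on either strand. It was searched for after the epidermal calls were known. It was present before 21 of 196 genes called higher (10.7%), 10 of 341 called lower (2.93%) and 803 of 17851 tested genes with a sequence (4.50%). Of the 8 called epidermal genes 1, FDH, held it in this window. The windows of FDH and of AN3, a leaf growth gene described below, are shown because both genes rose and hold the box, which is in capitals. Both are on the minus strand and come from the RefSeq annotation of TAIR10.1, FDH at chr2:11173279-11173528 and AN3 at chr5:10650067-10650316.
FDH: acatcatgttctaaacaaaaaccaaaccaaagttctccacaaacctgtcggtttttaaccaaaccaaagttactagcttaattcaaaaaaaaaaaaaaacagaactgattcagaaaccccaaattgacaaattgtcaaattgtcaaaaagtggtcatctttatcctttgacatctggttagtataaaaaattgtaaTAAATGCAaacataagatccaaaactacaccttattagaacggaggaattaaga
AN3: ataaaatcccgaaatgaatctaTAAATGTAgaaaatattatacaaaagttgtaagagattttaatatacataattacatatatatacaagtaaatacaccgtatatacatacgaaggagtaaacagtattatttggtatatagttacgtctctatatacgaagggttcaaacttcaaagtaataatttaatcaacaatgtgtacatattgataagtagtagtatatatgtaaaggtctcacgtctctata
The box begins 54 bases before the annotated gene start of FDH and 228 bases before that of AN3. A match describes these letters and is no measured binding site.

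In the stomatal lineage, the epidermal cells that give rise to stomata, receptor kinase genes rose. Of 16 listed genes 10 were tested, 3 were higher and 0 lower, and 4 and 0 with the block. ERECTA (ER), a receptor kinase for small secreted peptides that patterns stomata and sets organ shape, stood at 109 and 95.3 CPM in the arr1-labelled libraries, 4.33 and 8.04 CPM in Pro35SARR1 and 2.37 and 4.61 CPM in WT. The arr1 libraries lay above all others by a wide margin (adjusted p = 0.0213, log2 fold change 4.86 with an SE of 0.387). Its relative ERL2 stood at 61.6 and 60.1 CPM, 4.89 and 7.82 CPM in Pro35SARR1 and 6.20 and 6.63 CPM in WT (adjusted p = 0.0151, log2 fold change 3.24 with an SE of 0.235). POLAR (AT4G31805, annotated in RefSeq as a WRKY factor), a protein placed at one side of dividing lineage cells, was low but separate, at 3.33 and 4.099 CPM against 0.338 and 0.225 CPM in WT (adjusted p = 0.0372, log2 fold change 3.66 with an SE of 0.527). Families were matched by words in the annotation, which left ERL2 out of the kinase family below. Among 122 tested genes so matched as leucine-rich repeat kinases 4 were higher and 0 lower. That is 3.28% called, near the 2.99% over all genes. The block called 11 higher and 6 lower, and the median was 0.12. The 4 were ER, CLV1, the anther receptor gene EMS1 (adjusted p = 0.0262, log2 fold change 2.03 with an SE of 0.222) and AT5G43020, at 32.9 and 32.2 CPM against 2.26 and 2.36 CPM in WT (adjusted p = 0.00783, log2 fold change 3.81 with an SE of 0.215).

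Of 9 listed genes for trichomes and hair patterning 6 were tested. Of these 2 (33.3%) were higher and 0 lower, against 1.09% and 1.90% of all genes, and 3 and 0 with the block. EGL3, a helix-loop-helix factor that starts trichomes, stood at 16.4 and 13.1 CPM in the arr1-labelled libraries, against 1.58 and 2.02 CPM in WT (adjusted p = 0.0233, log2 fold change 3.02 with an SE of 0.290). GL2, a homeodomain factor of trichome growth, stood at 4.82 and 9.34 CPM, against 0.451 and 0.225 CPM in WT (adjusted p = 0.0361, log2 fold change 4.33 with an SE of 0.603), and it overlaps AT1G79850 in the table. Among 59 tested genes matched as homeobox factors by annotation words 5 (8.47%) were higher and 0 lower, against 1.09% and 1.90% of all genes. The family's median was 0.06. The counts were 10 and 7 with the block and 8 and 4 with DESeq2, and homeobox genes annotated in other words are left out. The 5 were ATML1, GL2, STM, ANL2 (adjusted p = 0.0297, log2 fold change 1.86 with an SE of 0.223) and HB31 (adjusted p = 0.0461, log2 fold change 1.73 with an SE of 0.286).

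Transcription factors of leaf growth gave 8 calls, all higher. Of 27 listed 24 were tested, with a median of 1.26. Of these 8 (33.3%) were higher and 0 lower, against 1.09% and 1.90% of all genes. The block called 13 higher and 1 lower, against 6.23% and 9.51% of all genes. The growth-regulating factors (GRFs), which regulate cell proliferation in young leaves, gave 5 of the 8. GRF1 stood at 34.7 and 33.1 CPM in the arr1-labelled libraries, 6.15 and 6.03 CPM in Pro35SARR1 and 3.04 and 7.08 CPM in WT (adjusted p = 0.0339, log2 fold change 2.74 with an SE of 0.373). GRF9 stood at 10.3 and 9.22 CPM, against 0.113 and 0.562 CPM in WT (adjusted p = 0.0442, log2 fold change 4.80 with an SE of 0.769). WT levels of GRF5, GRF7 and GRF9 rest on few counts, so the size of their fold is poorly known. AN3, the GRF coactivator, stood at 71.9 and 43.4 CPM in the arr1-labelled libraries, above 10.8 and 8.66 CPM in WT, and the 2 arr1 libraries differed. TCP2 and TCP24, of the TCP class that ends proliferation in leaves, rose as well, by 3.20 and 1.15. TCP24 stood at 27.5 and 25.5 CPM, against 12.9 and 11.0 CPM in WT. GRF1 and GRF3 overlap a neighbouring gene in the table.

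Other genes rose outside that list. Among B3 factors, a DNA-binding family taken up after values were seen, 59 were in the table and 28 were tested. Of these 6 (21.4%) were higher and 0 lower, against 1.09% and 1.90% of all genes (13 and 1 with the block). The first 4 by adjusted p were AT4G34400, AT1G26680, AT2G24700 and AT4G31615. Only NGA1 of the 6 has a gene symbol in the annotation used here. NGA1, a B3 factor that shapes leaves and styles, stood at 5.17 and 4.90 CPM in the arr1-labelled libraries, against 1.13 and 0.899 CPM in WT (adjusted p = 0.0466, log2 fold change 2.3 with an SE of 0.381). SPL8, a squamosa-promoter-binding factor, stood at 9.65 and 10.2 CPM, against 0 and 0.112 CPM in WT, and was called; with 1 count in WT its fold is not given. CYP78A5, a cytochrome P450 known to prolong organ growth, was among the abundant genes that rose, at 191 and 174 CPM against 21.4 and 49.9 CPM in WT (adjusted p = 0.0468, log2 fold change 2.35 with an SE of 0.394), and it overlaps AT1G13440. The YABBY genes FIL (named AFO in RefSeq), YAB2 and YAB3, of the outer side of leaf primordia, were among the 15 largest rises of genes with at least 5 CPM in the arr1-labelled libraries.

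Genes of the shoot meristem and its boundaries gave 2 calls. All 24 listed were tested, 2 (8.33%) were higher and 0 lower, against 1.09% and 1.90% of all genes. The block called 5 higher and 1 lower, against 6.23% and 9.51% of all genes. The median was 0.51, and it was −0.01 without WT replicate 1. The receptor kinase gene CLV1, which limits the stem cell domain, stood at 53.6 and 44.2 CPM in the arr1-labelled libraries, against 18.15 and 20.9 CPM in WT (adjusted p = 0.0392, log2 fold change 1.32 with an SE of 0.199). STM, which maintains the meristem, was the other. Of 19 listed floral regulators 12 were tested, with 1 higher and 1 lower, 16.7% called against 2.99% over all genes. LFY, the factor of floral fate, was called higher at 2.41 and 2.62 CPM, against 0.113 and 0.112 CPM in WT, where each library held 1 count. SEP3, a floral MADS-box factor, stood at 6.09 and 4.78 CPM, against 23.9 and 17.1 CPM in WT (adjusted p = 0.0329, log2 fold change −1.91 with an SE of 0.255). For neither gene did the arr1 and WT libraries overlap, as in every called gene.

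**Figure D3:**
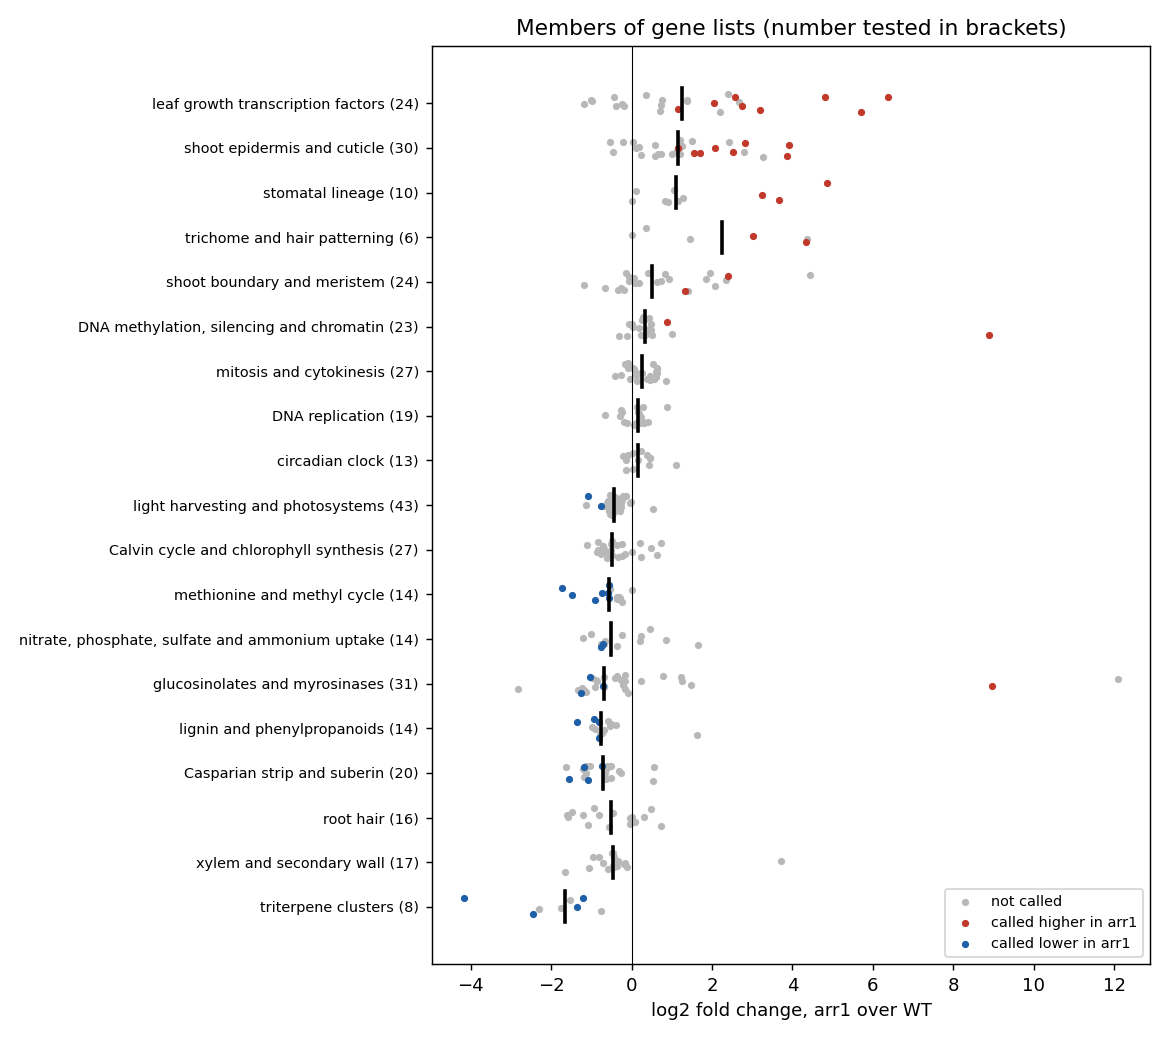
Each point is a tested member of a gene list, placed by its log2 fold change, arr1 over WT; red is called higher, blue called lower, grey not called, and the black bar is the list's median. Leaf growth, epidermis, stomatal and trichome lists lie to the right with medians of 1.11 to 2.24, and the triterpene list lies furthest left with a median of −1.64.

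Of 27 tested genes of mitosis and cytokinesis edgeR called 0, with a median of 0.25. At an unadjusted p under 0.05 11 were higher and 0 lower, against 1741 and 2242 of all 18083 genes. DESeq2 called 1 of the list higher, limma 0 and the block 7 higher. Of 19 tested genes of DNA replication edgeR called 0, with a median of 0.17, while 1 was higher and 1 lower at an unadjusted p under 0.05, and DESeq2 and limma each called 1 lower. Of 12 cyclin D genes and cell cycle inhibitors 1 rose, CYCD3;2, a D-type cyclin, at 119 and 124 CPM in the arr1-labelled libraries, against 56.6 and 56.3 CPM in WT (adjusted p = 0.0219, log2 fold change 1.1 with an SE of 0.0944). Of 287 tested cytosolic ribosomal proteins 1 was higher and 0 lower (13 and 0 with the block), with a median of 0.03. Of 45 histones 1 was higher and 0 lower (5 and 2 with the block). In the list of DNA methylation, silencing and chromatin 23 were tested, with a median of 0.33. Of these 2 (8.70%) were higher and 0 lower, against 1.09% and 1.90% of all genes. ROS1, the DNA demethylase named DML1 in RefSeq, stood at 34.7 and 39.2 CPM, against 19.8 and 20.01 CPM in WT (adjusted p = 0.0497, log2 fold change 0.89 with an SE of 0.156). SUVR1, a SET-domain gene with no counts in WT, was the other.

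Abundant genes that rose were few. AT2G33830, annotated as a dormancy or auxin associated protein, stood at 545 and 679.8 CPM in the arr1-labelled libraries, 109 and 139 CPM in Pro35SARR1 and 182 and 259.7 CPM in WT (adjusted p = 0.0409, log2 fold change 1.47 with an SE of 0.225). AT1G30820, a CTP synthase gene, stood at 311 and 571 CPM, against 69.7 and 118 CPM in WT (adjusted p = 0.0473, log2 fold change 2.23 with an SE of 0.381), with both genotypes' libraries well apart. PRH75, a nucleolar RNA helicase, and ECT2, a reader of methylated adenosine in mRNA, moved by small amounts with close replicates. PRH75 stood at 534 and 538 CPM, against 328 and 343 CPM in WT (adjusted p = 0.0339, log2 fold change 0.68 with an SE of 0.0914). ECT2 stood at 543 and 542 CPM, against 379 and 382 CPM in WT (adjusted p = 0.0497, log2 fold change 0.51 with an SE of 0.0903). In each of these genes both arr1 libraries lay above all WT libraries, as in every gene called higher.

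The genes that fell were led by abundant metabolic genes. PCK1, the phosphoenolpyruvate carboxykinase of gluconeogenesis, stood at 3231 and 2558 CPM in the arr1-labelled libraries, 6394 and 6743 CPM in Pro35SARR1 and 7182 and 7282 CPM in WT (adjusted p = 0.0262, log2 fold change −1.32 with an SE of 0.140). It was the largest difference in CPM of any called gene. MT2B, a metallothionein, stood at 3672 and 2882 CPM, against 6318 and 6072 CPM in WT (adjusted p = 0.0422, log2 fold change −0.92 with an SE of 0.142), and it overlaps AT5G02370. NIT1, a nitrilase, stood at 1132 and 970.3 CPM, against 2632 and 2005 CPM in WT (adjusted p = 0.0374, log2 fold change −1.14 with an SE of 0.167). In all of these the arr1 libraries lay below every other library. The glutathione transferase gene GSTF9 fell by 1.13 on the log2 scale. Both main proton pumps of the plasma membrane fell, HA1 by 0.78 and HA2 by 1.37. HA2 stood at 540.0 and 439 CPM in the arr1-labelled libraries, 1093 and 933 CPM in Pro35SARR1 and 1490.0 and 1039 CPM in WT.

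**Figure D4:**
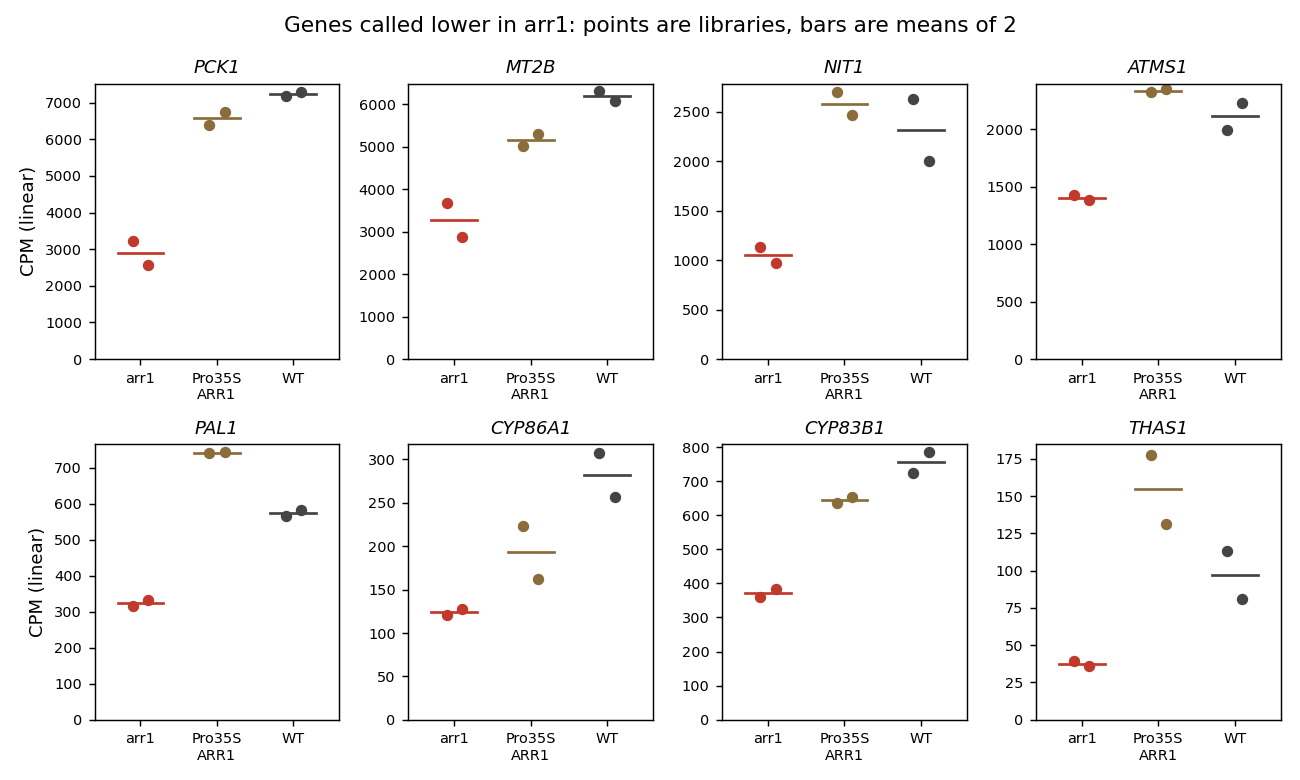
CPM on a linear axis starting at 0 in each library of arr1, Pro35SARR1 and WT for 8 genes called lower, with a bar at the mean of 2 libraries. Both arr1 points lie below all 4 others in each panel; for PAL1 and THAS1 the Pro35SARR1 points lie above those of WT.

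Genes of the methionine and methyl cycle, which supplies S-adenosylmethionine, were described as a list after values were seen. Of 14 tested 7 were lower and 0 higher, and 11 and 0 with the block, with 13 of the 14 at 100 CPM or more. At that level 7.45% of all genes were lower. MS2, a methionine synthase, stood at 141 and 154 CPM in the arr1-labelled libraries, 696 and 608 CPM in Pro35SARR1 and 469.5 and 509 CPM in WT (adjusted p = 0.0128, log2 fold change −1.73 with an SE of 0.118). SAHH2, which removes the product of methylation reactions, stood at 232 and 208 CPM, against 636 and 593 CPM in WT (adjusted p = 0.0247, log2 fold change −1.48 with an SE of 0.153). Both genes were well below WT in each arr1 library. Smaller falls were called for ATMS1, the most abundant methionine synthase (log2 fold change −0.59), for MAT3, an S-adenosylmethionine synthetase (−0.92), for MTO1, the first enzyme of methionine synthesis (−0.72), and for MTHFR1 (−0.57) and ADK1 (−0.57). MTHFR1 overlaps AT3G59980.

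Subunits of the mitochondrial respiratory chain, also described after values were seen, gave calls in 1 direction, lower. Of 70 tested 16 (22.9%) were lower and 0 higher, against 1.90% and 1.09% of all genes, with a median of −0.40. The block called 36 lower and 0 higher, against 9.51% and 6.23% of all genes. Of the 32 at 100 CPM or more 14 were lower, where 7.45% of all genes were lower. SDH7, a succinate dehydrogenase subunit, stood at 38.9 and 42.1 CPM in the arr1-labelled libraries, against 66.2 and 73.2 CPM in WT (adjusted p = 0.0361, log2 fold change −0.78 with an SE of 0.109). ATP3, the gamma subunit of ATP synthase, stood at 361 and 325 CPM, against 521 and 522 CPM in WT (adjusted p = 0.0442, log2 fold change −0.61 with an SE of 0.0971). The 2 libraries of each genotype lay close together in both genes. Calls fell on complex I, complex II, the cytochrome bc1 complex, cytochrome c oxidase and ATP synthase genes, and none went below a log2 fold change of −0.78.

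Calls among genes of the root's apoplastic barriers, the Casparian strip and suberin, were all lower. Of 23 listed genes 20 were tested, 4 were lower and 0 higher, with a median of −0.70, and 10 and 2 with the block. CYP86A1, the fatty acid hydroxylase of root suberin, stood at 121 and 128 CPM in the arr1-labelled libraries, 223 and 162 CPM in Pro35SARR1 and 308 and 257 CPM in WT (adjusted p = 0.0413, log2 fold change −1.18 with an SE of 0.182). GPAT5, an acyltransferase of suberin, stood at 25.2 and 24.5 CPM, against 52.4 and 51.9 CPM in WT (adjusted p = 0.0468, log2 fold change −1.07 with an SE of 0.178). As in every called gene, the arr1 and WT libraries were apart for both. The fatty acyl reductase gene FAR4 and the suberin transporter gene ABCG2 fell by 1.56 and 0.74 on the log2 scale, and FAR4 overlaps AT3G44480. Summed over the list, the level was 708 and 683 CPM in the arr1-labelled libraries, against 1407 and 1009 CPM in WT.

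Phenylpropanoid genes, which make lignin precursors, were called lower only. All 14 listed were tested, 4 (28.6%) were lower and 0 higher, with a median of −0.76, and 12 and 1 with the block. At 100 CPM or more lay 12 of the 14, a level at which 7.45% of all genes were lower. PAL1, the entry enzyme, stood at 317 and 333 CPM in the arr1-labelled libraries, 740.0 and 744 CPM in Pro35SARR1 and 566 and 581 CPM in WT (adjusted p = 0.0263, log2 fold change −0.82 with an SE of 0.0897). CAD4, a cinnamyl alcohol dehydrogenase of lignin, stood at 95.6 and 87.2 CPM, against 258 and 209 CPM in WT (adjusted p = 0.0262, log2 fold change −1.35 with an SE of 0.143). C4H and CAD5 fell by 0.81 and 0.94. CAD9, of the same enzyme family, rose (adjusted p = 0.0382, log2 fold change 1.58 with an SE of 0.234), and it overlaps AT4G39340. Of 68 tested peroxidases 8 (11.8%) were lower and 0 higher, against 1.90% and 1.09% of all genes. Of the 19 at 100 CPM or more 4 were lower, where 7.45% of all genes were lower. The block called 30 lower and 1 higher. PRXCB, a cell wall peroxidase, stood at 429.6 and 595 CPM, against 1229 and 2099 CPM in WT (adjusted p = 0.0472, log2 fold change −1.70 with an SE of 0.289). PRX52 stood at 5.86 and 3.64 CPM in the arr1-labelled libraries, 44.8 and 58.0 CPM in Pro35SARR1 and 13.2 and 16.4 CPM in WT. Of 18 tested dirigent-like proteins, another family taken up afterwards, 4 (22.2%) were lower and 0 higher (8 and 0 with the block). Among them was AT4G11190 at 15.05 and 21.2 CPM against 85.9 and 109.7 CPM in WT (adjusted p = 0.0219, log2 fold change −2.43 with an SE of 0.207).

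Specialised metabolism gave calls in both directions. Of 35 listed glucosinolate and myrosinase genes 31 were tested, with a median of −0.68. Of these 3 were lower and 1 higher, 12.9% called against 2.99% over all genes. The block called 17 lower and 3 higher, against 9.51% and 6.23% of all genes. CYP83B1, which commits indole aldoxime to glucosinolates, stood at 360.0 and 382 CPM in the arr1-labelled libraries, 637 and 652 CPM in Pro35SARR1 and 724 and 786 CPM in WT (adjusted p = 0.0233, log2 fold change −1.02 with an SE of 0.0979). The sulfotransferase genes SOT16 and SOT17, of the last core step, fell by 0.70 and 1.27. The gene that rose was TGG1, a myrosinase, and its 2 arr1 libraries differed widely, at 24.9 and 213 CPM against 0.226 and 0.225 CPM in WT. Its neighbour in function TGG2, named after its values were seen, split in the same manner, at 11.3 and 112 CPM with no counts in WT, and was not called (adjusted p = 0.087), though the block called it higher (adjusted p = 0.00228). Of the 541 called genes 8 had arr1 libraries over 2-fold apart and 2 over 5-fold apart. In the flavonoid list 14 of 19 were tested, with the list's median at −0.56. DFR and LDOX, 2 of the 14 (14.3%), were higher and 0 lower, against 1.09% and 1.90% of all genes. Lower calls were made by other fits, 3 with the block, 3 with DESeq2 and 2 with limma, and 8 genes were lower at an unadjusted p under 0.05.

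The lowest adjusted p of all tested genes lay in the thalianol cluster, where neighbouring genes make a root triterpene. Of 12 listed triterpene cluster genes 8 were tested, 4 were lower and 0 higher, against 1.90% and 1.09% of all genes. The block and DESeq2 each called the same 4 lower and 0 higher, so neither called the other tested members. All 8 lay below 0, with a median of −1.64. The 4 called genes are adjacent on chromosome 5 (19428888 to 19461689) with no other tested gene between them. AT5G47980, an acyltransferase gene, stood at 2.07 and 1.94 CPM in the arr1-labelled libraries, 109 and 109.7 CPM in Pro35SARR1 and 34.1 and 38.0 CPM in WT (adjusted p = 0.00323, log2 fold change −4.16 with an SE of 0.143). THAD (CYP705A5 in RefSeq), the P450 that desaturates thalianol, stood at 34.6 and 29.5 CPM, 287 and 270.1 CPM in Pro35SARR1 and 174 and 175 CPM in WT (adjusted p = 0.00704, log2 fold change −2.44 with an SE of 0.117). In both genes the arr1 libraries lay below and the Pro35SARR1 libraries above both WT libraries. THAH (CYP708A2 in RefSeq), the P450 that hydroxylates it, stood at 87.9 and 76.7 CPM, against 204 and 175 CPM in WT (adjusted p = 0.0267, log2 fold change −1.20 with an SE of 0.137). THAS1, the synthase of the first step, stood at 39.5 and 35.9 CPM, against 113 and 81.3 CPM in WT (adjusted p = 0.0442, log2 fold change −1.37 with an SE of 0.220). The fall was deepest at the acyltransferase end and shallower at THAH and THAS1. In each gene the arr1 libraries were lowest and the Pro35SARR1 libraries highest.

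The 250 bases before these 4 genes are shown because the genes moved together, with AGATT, the core bound by type-B response regulators, in capitals on either strand (AATCT where it lies on the opposite strand). They come from TAIR10.1, AT5G47980 at chr5:19428638-19428887 (plus strand), THAD at chr5:19434508-19434757 (plus strand), THAH at chr5:19447867-19448116 (minus strand) and THAS1 at chr5:19456587-19456836 (plus strand).
AT5G47980: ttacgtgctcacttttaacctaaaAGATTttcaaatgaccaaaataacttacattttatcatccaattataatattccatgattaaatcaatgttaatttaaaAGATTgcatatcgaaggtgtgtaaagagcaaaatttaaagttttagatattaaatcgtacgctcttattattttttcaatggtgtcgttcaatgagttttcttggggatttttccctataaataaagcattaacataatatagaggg
THAD: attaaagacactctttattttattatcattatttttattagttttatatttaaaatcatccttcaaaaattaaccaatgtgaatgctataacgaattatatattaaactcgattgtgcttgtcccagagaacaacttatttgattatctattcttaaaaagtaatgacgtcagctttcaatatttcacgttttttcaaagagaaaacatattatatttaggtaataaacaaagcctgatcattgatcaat
THAH: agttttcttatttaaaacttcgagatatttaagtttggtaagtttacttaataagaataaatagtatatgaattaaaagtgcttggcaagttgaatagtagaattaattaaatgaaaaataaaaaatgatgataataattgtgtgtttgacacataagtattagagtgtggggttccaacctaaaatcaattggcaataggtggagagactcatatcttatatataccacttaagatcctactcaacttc
THAS1: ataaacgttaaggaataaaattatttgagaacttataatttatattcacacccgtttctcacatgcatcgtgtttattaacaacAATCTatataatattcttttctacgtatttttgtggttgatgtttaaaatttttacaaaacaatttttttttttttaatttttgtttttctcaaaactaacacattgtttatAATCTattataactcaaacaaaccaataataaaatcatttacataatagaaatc
AT5G47980 and THAS1 hold 2 matches each and the other windows 0. The motif is common at this length. It was present before 121 of 196 genes called higher (61.7%), 214 of 341 called lower (62.8%) and 11164 of 17851 tested genes (62.5%), so its share among called genes was near that of all genes.

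A second run of 5 neighbouring genes fell on chromosome 4 (8925806 to 8937892). AT4G15660, AT4G15670, AT4G15680, AT4G15690 and AT4G15700 are annotated as thioredoxin superfamily proteins and are glutaredoxin-like. AT4G15680, the most abundant, stood at 17.8 and 23.8 CPM in the arr1-labelled libraries, 43.7 and 28.7 CPM in Pro35SARR1 and 60.2 and 54.2 CPM in WT (adjusted p = 0.0468, log2 fold change −1.46 with an SE of 0.246). AT4G15700 stood at 11.5 and 13.0 CPM, against 36.3 and 34.96 CPM in WT (adjusted p = 0.0233, log2 fold change −1.54 with an SE of 0.146). The log2 fold changes of the 5 ran between −1.76 and −1.46. The genes are close copies, with coding sequences of 309 bases and 88.3% to 93.2% identity over 10 pairs, so their reads may have been split or shared in the counting, and they are not 5 independent observations. The first 60 coding bases are shown to make this visible, with the 11 positions at which any of the 5 differ in capitals.
AT4G15660: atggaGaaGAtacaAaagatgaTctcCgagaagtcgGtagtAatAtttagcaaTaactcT
AT4G15670: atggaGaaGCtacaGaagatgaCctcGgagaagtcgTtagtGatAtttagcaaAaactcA
AT4G15680: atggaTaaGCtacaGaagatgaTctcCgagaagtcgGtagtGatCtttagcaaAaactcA
AT4G15690: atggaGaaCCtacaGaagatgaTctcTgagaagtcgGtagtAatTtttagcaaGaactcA
AT4G15700: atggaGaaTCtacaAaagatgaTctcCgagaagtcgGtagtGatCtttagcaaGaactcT
AT4G15620, which lies before this run, was called in the other direction, at 5.51 and 5.69 CPM against 0.113 and 0.225 CPM in WT. In all, 31 called genes lay in 13 runs of neighbours called in 1 direction, of which 12 runs were lower and 1 higher; the higher run was a pair of fatty acid desaturase genes, ADS4 and AT1G06360 (adjusted p = 0.0339, log2 fold change 4.50 with an SE of 0.609).

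**Figure D5:**
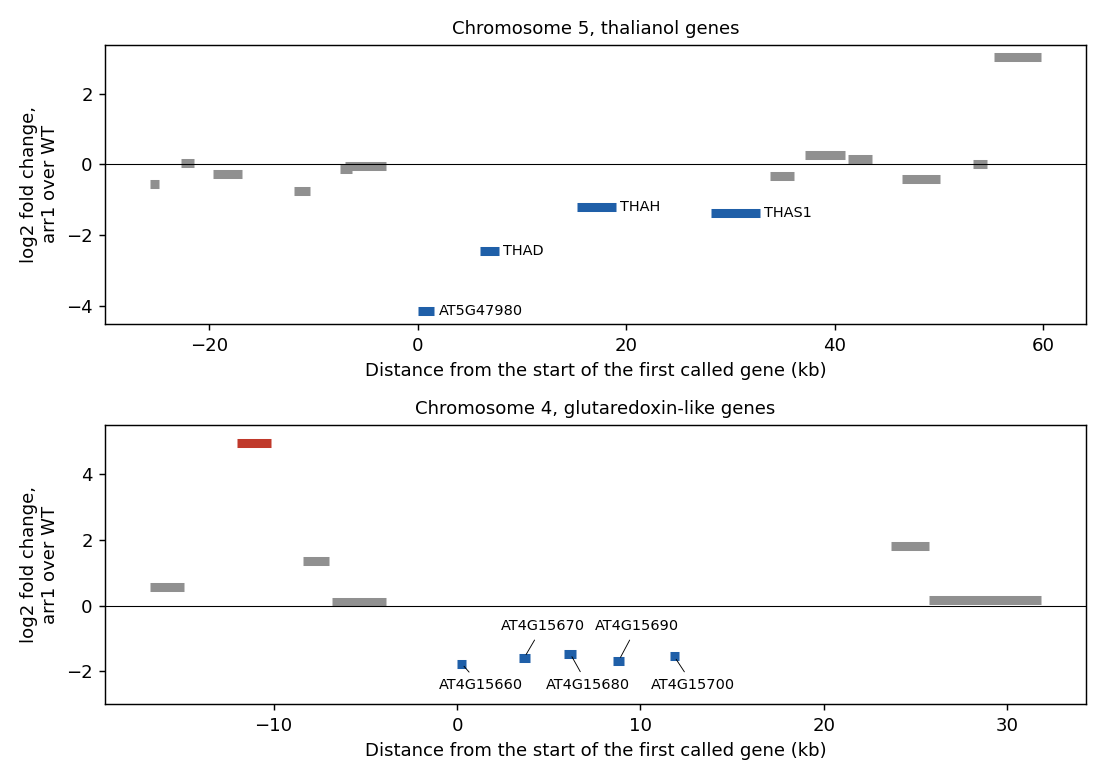
Each bar is a tested gene, drawn at its extent in kb from the start of the first called gene and at its log2 fold change, arr1 over WT; blue is called lower, red called higher and grey not called. The thalianol genes lie at −4.16, −2.44, −1.20 and −1.37 between uncalled neighbours, the glutaredoxin-like genes between −1.76 and −1.46, and the red bar is AT4G15620.

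Of 43 tested genes of light harvesting and photosystems 42 lay below 0, with a median of −0.44. PSBO2 and PSBQ2 were called lower and 0 genes higher, which is 4.65% of the list against 1.90% lower over all genes. Of the 43, 34 lay at 100 CPM or more, where 7.45% of all genes were lower. The block called 23 of the list lower, DESeq2 6 and limma 2. Their summed level was 11173 and 11576 CPM in the arr1-labelled libraries, against 13375 and 16472 CPM in WT, and the 2 WT libraries differed more than the genotypes at their nearest. Of 27 tested genes of the Calvin cycle and chlorophyll synthesis edgeR called 0, with a median of −0.50. At an unadjusted p under 0.05 7 were lower and 1 higher, DESeq2 called 3 lower, limma 0 and the block 12 lower.

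Of 14 tested uptake and assimilation genes for nitrogen, phosphate and sulfate 2 (14.3%) were lower and 0 higher, against 2.99% called over all genes. Both were among the 4 at 100 CPM or more, a level at which 7.45% of all genes were lower. The block called 5 of this list lower and 0 higher. NIA2, a nitrate reductase, stood at 918 and 1038 CPM in the arr1-labelled libraries, 1309 and 1407 CPM in Pro35SARR1 and 1526 and 1649 CPM in WT (adjusted p = 0.0442, log2 fold change −0.70 with an SE of 0.112). NIR1, the nitrite reductase, fell by 0.77 on the log2 scale. Of 9 tested genes of the iron list the block called 4 lower and 1 higher, and edgeR without it called 2 (22.2%). Of these 1 rose, the citrate exporter gene FRD3 (adjusted p = 0.0372, log2 fold change 1.05 with an SE of 0.151), and 1 fell, the ferritin gene FER1 (adjusted p = 0.0373, log2 fold change −0.76 with an SE of 0.110). IRT1, bHLH38, bHLH39 and CYP82C4, which mark iron deficiency, had no counts in any arr1 or WT library. Of 17 tested stress genes 1 fell, the ascorbate peroxidase gene APX1 (adjusted p = 0.0497, log2 fold change −0.76 with an SE of 0.133). The block called 5 of the stress list lower and 1 higher, and DESeq2 4 lower and 0 higher. Of 25 tested aquaporins 4 were lower and 0 higher, and 6 and 2 with the block. Among them was the boric acid channel gene NIP5;1, at 12.6 and 12.2 CPM, against 26.4 and 25.3 CPM in WT (adjusted p = 0.0324, log2 fold change −1.06 with an SE of 0.137). Of 18 tested primary wall genes the expansin gene EXPA8 fell (adjusted p = 0.0448, log2 fold change −2.35 with an SE of 0.381). In that list the block called 2 lower and 3 higher, and DESeq2 3 lower and 2 higher.

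Lists of root cell types other than the endodermis gave no calls with edgeR. Over all 18083 tested genes 1741 were higher and 2242 lower at an unadjusted p under 0.05, 3983 in either direction. Of 16 tested root hair genes 1 was lower and 0 higher at an unadjusted p under 0.05, and 5 were lower with the block. Of 17 tested xylem and secondary wall genes 3 were lower and 0 higher at that p, and 2 were lower with the block. Of 14 tested phloem genes 4 were lower and 0 higher at that p, and 4 were lower and 1 higher with the block. Of 8 tested genes of the root stem cells and cap 3 were higher and 0 lower at that p, and 1 was higher with the block. DESeq2 called 2 of the phloem genes and limma 1 of them lower, and both called 0 in the other 3 lists. The root hair and xylem medians were −0.51 and −0.45, and both turned positive without WT replicate 2, at 0.11 and 0.24. Their summed levels were unequal between WT libraries, with xylem genes at 472 and 555 CPM in the arr1-labelled libraries, against 454 and 947 CPM in WT. Lists of hypoxia (9 tested), sugar and starvation (14), the clock (13) and camalexin and pathogen response (22) also gave 0 calls, with 1, 5, 2 and 9 genes at an unadjusted p under 0.05, and DESeq2 called 1, 1, 1 and 4 of them, limma 0 and the block 2, 3, 1 and 4. Over all 29 lists, 8 held only higher calls, 7 only lower calls, 3 both and 11 none. Over 35 families named by a word in the annotation, 9 held only higher calls, 11 only lower, 9 both and 6 none. Of 144 tested cytochrome P450s 10 were lower and 2 higher, 8.33% called against 2.99% over all genes (34 and 7 with the block). Of 42 acyltransferases of the HXXXD type 5 were lower and 3 higher, 19.0% called (11 and 6 with the block). Of 156 F-box genes 1 was lower and 0 higher (6 and 2 with the block).

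Some genes were nearly silent in one genotype. At 3 counts or fewer in each WT library and at least 5 CPM in both libraries labelled arr1 there were 13 genes, of which 11 were called. In Pro35SARR1 0 of the 13 averaged 5 CPM. SUVR1 stood at 6.43 and 6.95 CPM in the arr1-labelled libraries and 4.67 and 3.91 CPM in Pro35SARR1, with no counts in WT. MSL9, which was not called and is named after its values were seen, stood at 14.2 and 9.57 CPM in the arr1-labelled libraries, 0 and 7.60 CPM in Pro35SARR1 and no counts in WT. The 13 included CEL2, a cellulase gene, at 9.08 and 12.9 CPM in the arr1-labelled libraries, 0.455 and 0.670 CPM in Pro35SARR1 and 0.226 and 0.337 CPM in WT. AT1G28410, annotated as a myosin heavy chain-like protein, stood at 8.96 and 7.29 CPM with no counts in Pro35SARR1 or WT, which makes it at least 24.1-fold higher when WT is set to 3 counts per library. It overlaps AT1G28420. In the other direction 2 genes were nearly silent in the arr1-labelled libraries, MRD1 and AT3G27970. MRD1 had no counts there, against 11.8 and 9.16 CPM in Pro35SARR1 and 8.68 and 11.2 CPM in WT, and it overlaps AT1G53490. AT3G27970, an exonuclease gene, was low in Pro35SARR1 too, at 0.345 and 0 CPM in the arr1-labelled libraries, 0.911 and 1.90 CPM in Pro35SARR1 and 9.02 and 7.53 CPM in WT.

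Other large falls had WT levels of 5 CPM or more. CEP2, a cysteine protease gene, stood at 2.41 and 4.44 CPM in the arr1-labelled libraries, against 29.2 and 41.1 CPM in WT (adjusted p = 0.0233, log2 fold change −3.35 with an SE of 0.326). LSU4, a gene known for its response to low sulfur, stood at 4.71 and 3.42 CPM, against 21.1 and 29.6 CPM in WT (adjusted p = 0.0233, log2 fold change −2.64 with an SE of 0.261). SUC5, a sucrose carrier gene, stood at 15.9 and 10.48 CPM, against 90.09 and 60.7 CPM in WT (adjusted p = 0.0301, log2 fold change −2.52 with an SE of 0.305). In these 3 genes every arr1 library lay below every WT library, as in every gene called lower. Of the called genes 74 overlap another gene in the table, and 2 have a copy of at least 95% identity over at least 50% of their coding sequence.

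Calls were spread over the genome, at 2.63% to 3.47% of tested genes on the 5 chromosomes. Within 2 Mb centred on ARR1, 402 genes were tested, 7 were higher and 7 lower (3.48%), close to 2.99% overall. Within 0.2 Mb centred on it 3 of 40 were higher and 0 lower (7.50%). They were SWEET16, a vacuolar sugar carrier gene, AT3G16800, a protein phosphatase 2C gene, and AT3G17160, which overlaps AT3G17170, and they are named for their position.

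For arr1 and WT, the authors' deposited table holds 437 genes, with 260 up and 177 down. Here 428 of them were tested and 283 were called in the same direction, which is 64.8% of the authors' list and 52.3% of the 541 calls. The deposited table was made from the same libraries and is no independent evidence.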

How the data were processed

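RNA from 6 root-explant libraries (2 per genotype) was sequenced. Per the file headers, the authors deposited 1 table with an estimated count (not always whole) and an FPKM value per isoform and library, and a table for the comparison with their log2 fold change and p-value per gene. CASAVA and DESeq are named, without versions, per the submitters' processing notes. The sources used here do not give the aligner, the use of strand or the genome build. Of genes with a reference entry, 97.4% started within 500 bp of their TAIR10.1 start, from which RefSeq names and sequences were taken.

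The deposited estimated counts were summed per gene over 35593 isoforms of 26726 genes and rounded. Genes passing edgeR's filterByExpr (18083) were scaled by TMM and tested with edgeR 4.0.16's quasi-likelihood test (R 4.3.3) over all 6 libraries with genotype as the only term, leaving 3 residual degrees of freedom. P-values were adjusted by Benjamini-Hochberg over all 18083 genes, with 0.05 as the threshold. Each SE was taken as the size of the log2 fold change over the root of the test's F. A count of 3 in a library was worth 0.337 to 0.345 CPM in arr1 and WT, and this floor covers counting error only. The alternatives were other scaling factors, no filter, WT and arr1 alone, DESeq2 1.42.0, limma 3.58.1 on the deposited FPKM on a log2 scale with pseudocounts of 1 and 0.1, a 2-fold minimum, a replicate block and leaving out each library. Only the main edgeR fit was tested on simulated data, and the alternatives were not.

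Replicate numbers come from the titles, and the labels state no shared batch. Deviations of same-numbered libraries from their genotype means correlated over 17752 genes at 0.249 between arr1 and WT, 0.24 between arr1 and Pro35SARR1, and 0.43 between Pro35SARR1 and WT, so blocked values are given beside results. All SEs, adjusted p-values and calls are from the fit without the block unless the block is named.

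Members and gene lists were chosen with earlier results of these data known. The methionine list, the respiratory chain, 3-ketoacyl-CoA synthase, dirigent-like and B3 families and the L1 box were added after the values above were seen. Named genes are ARR1, up to 4 called members of each list or family by adjusted p, the 15 largest changes in each direction among called genes of at least 5 CPM in the higher genotype, the 10 largest differences in CPM in each direction, and runs of 3 or more neighbours. LTPG1, ACR4, HB31, TCP2, TCP24, GRF9, NGA1, ATP3, ADK1, MTHFR1, PRX52, AT1G06360, MSL9, TGG2 and the 3 genes near ARR1 fall outside this and were named after their values were seen. Coding sequences were compared with blastn 2.17.0.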

Additional observations from a re-analysis of the deposited data

How the results depend on the processing

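The 541 called genes kept their sign under all 16 alternatives, but the counts moved. The number higher was 198 as reported, 120 with no filter on low counts, 57 with WT and arr1 libraries only, 1127 with the replicate block, 491 with DESeq2, and 0 to 26 when 1 library was left out. The number lower was 343 as reported, 214 with upper-quartile factors, 128 with library totals alone, 192 with no filter, 39 with WT and arr1 libraries only, 1720 with the replicate block, 914 with DESeq2, 152 with a 2-fold minimum, and 0 to 11 when 1 library was left out. Where a genotype was left with 1 library, that library is assumed to vary like the others, and the cause of the lost calls was not tested beyond the fewer libraries. The block was the one fit beside DESeq2 under which all 541 calls held, and it ended no call. Among genes named as not called it turned TGG2 into a call. Over 8704 pairs of a named gene and an alternative, 4213 stayed on the same side of the threshold, 4484 kept the sign but missed it, 4 newly passed it and 3 changed sign. All 3 sign changes were of ARR1, at 0.03 with upper-quartile factors, 0.11 with library totals alone and 0.02 without arr1 replicate 2; leaving out 1 library gave it −0.05 to 0.02. Upper-quartile factors shifted the median log2 fold change of all genes by 0.04 and totals alone by 0.13. List medians near 0 changed sign in places, such as hypoxia at −0.08 (0.06 with totals alone) and primary wall genes at −0.08 (0.05 with totals alone), and that of iron genes was −0.76 (0.01 without WT replicate 1). With 2 libraries a genotype and 3 residual degrees of freedom, changes in genes of few counts are measured poorly, and a gene not called is not shown to be unchanged.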

Other observations

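Of 180 loci in the table without a TAIR name 160 were tested, 2 were called higher and 1 lower. They took 0.766% and 0.612% of all CPM in the arr1-labelled libraries, 0.561% and 0.681% in Pro35SARR1, and 0.597% and 0.518% in WT. The 14 tested genes encoded in the mitochondrion gave 0 calls with edgeR, 2 at an unadjusted p under 0.05 and 0 with DESeq2 and limma, and took at most 0.00625% of CPM in any library. The 19 tested plastid-encoded genes gave 0 calls with edgeR, 0 at an unadjusted p under 0.05 and 0 with DESeq2 and limma.

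The median of the longest isoform was 1577 nt for genes called higher, 1374 nt for genes called lower and 1550.0 nt for all tested nuclear genes. The share with a single isoform was 65.7%, 71.4% and 69.0% in the same order.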
